A study of Vitis amurensis with 6 samples.

Results

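The genes described here were abundant in warm leaves of Vitis amurensis and stood at 0.5 of that level or less after 2 h of cold. They were chosen by the measured FPKM of these same libraries. FPKM are sequenced fragments per kilobase of gene, corrected for the size of the library, and are used as the authors deposited them. A gene was a member when its lowest control library held at least 40 FPKM and its highest cold library at most 0.5 of that lowest control value. Of 31845 gene identifiers, 67 met the rule. Every level, fold and separation between cold and control given for these genes is therefore a description, with no test.

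Vitis amurensis is a wild grape of north-east Asia known for its winter hardiness. The cold group was 3 libraries from leaves of 1-month-old wild-type in vitro plants moved for 2 h to a chilled incubator at 4 °C under constant light. The control group was 3 libraries from leaves of such plants left at 26 °C under the same light. All plants had been subcultured monthly on a medium with IBA under a daily light and dark cycle, so both groups share these conditions. Whether each library is a separate plant, and the hour of sampling, are not stated in the labels. The time that passed, the move and the temperature cannot be told apart.

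The level of an mRNA is the balance of its synthesis and its degradation, and a measurement at a single time does not separate them. Abundant transcripts of a green leaf mostly serve photosynthesis and basic metabolism. Within hours of chilling, plants are known to switch on cold regulators and to draw down transcripts of warm growth. The deposited table does not pair its identifiers with gene names, so no function is given to any member, and the leaf label could not be checked against marker genes. Each identifier was read as a chromosome field, a scaffold field and a serial number along the scaffold, and these fields were not checked against a genome. The libraries held 18773557, 19468504 and 21217704 reads in cold and 16657708, 16437001 and 16563238 reads in control, as recovered from the FPKM. Control library 1 stood apart from control libraries 2 and 3 for some members, so values without it are given where it matters.

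The 67 genes covered a wide range of levels. Their group means lay between 2.74 and 275 FPKM in cold, with a median of 22.6 FPKM, and between 45.6 and 1392 FPKM in control, with a median of 104 FPKM. Of 2207 genes with at least 40 FPKM in every control library, the 67 members are 3.04%. In bulk leaves, fewer cells that hold a transcript and less of it per cell cannot be told apart.

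**Figure D1:**
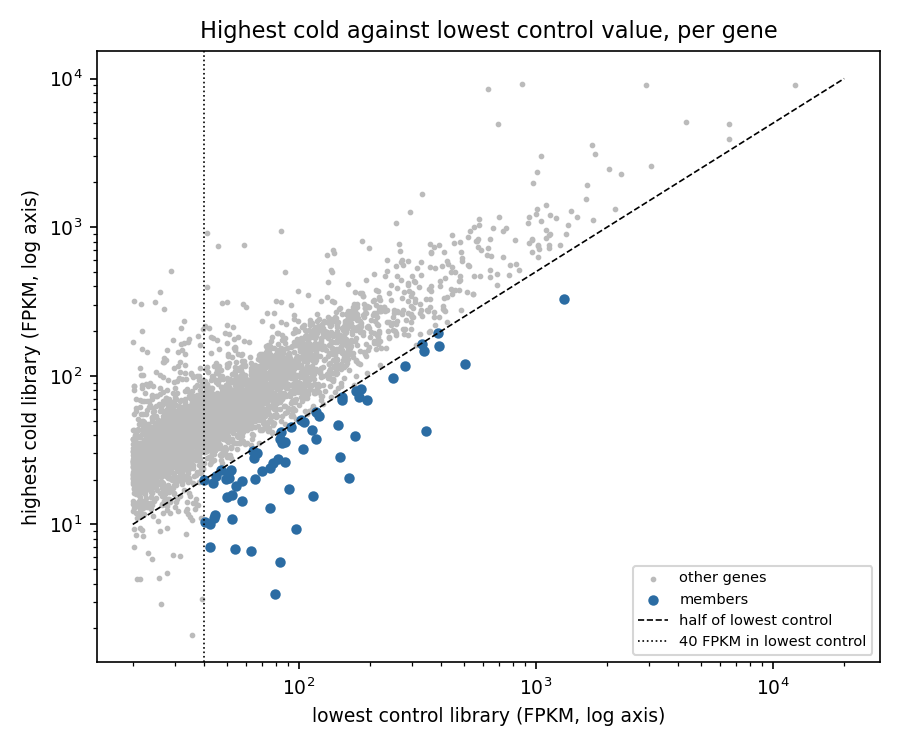
Highest cold library against lowest control library for every gene with at least 20 FPKM in its lowest control library, in FPKM on log axes. The 67 members (blue) lie right of the dotted line at 40 FPKM and on or under the dashed line where the cold value is 0.5 of the control value, and the member farthest right is VIT_214s0066g01210 with a lowest control value of 1311 FPKM.

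Together the 67 genes took a much smaller share of leaf mRNA in cold. Their summed level was 2464, 2828 and 2783 FPKM in cold libraries 1, 2 and 3, and 12659, 10212 and 10174 FPKM in control libraries 1, 2 and 3. The highest cold sum was well under the lowest control sum, and control library 1 was the highest of the control libraries. The sum averaged 2691 ± 199 FPKM over the 3 cold libraries and 11015 ± 1424 FPKM over the 3 control libraries (± SD), so the control mean was 4.09 times the cold mean, or 3.79 times without control library 1. As a share of all counted reads the members made up 0.439% ± 0.0338 of the cold libraries and 1.80% ± 0.235 of the control libraries (± SD, 3 libraries each).

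Most members left the upper ranks of the transcriptome. Ranked by mean level among all 31845 identifiers, the median member stood at place 4739 in cold and at place 819 in control. Of the 67, 6 were among the 1000 most abundant genes in cold and 41 in control. Among the 100 most abundant genes there were 0 members in cold and 2 in control. After cold, 26 members averaged under 20 FPKM and 10 of these under 10 FPKM.

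**Figure D2:**
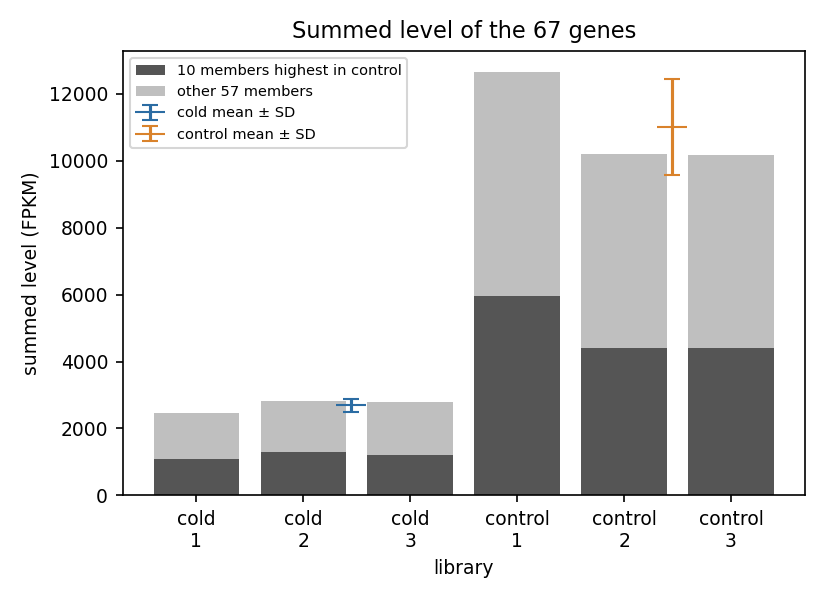
Summed FPKM of the 67 genes in each library, split into the 10 members with the highest control means (dark) and the other 57 (light), with the mean ± SD of each group's total. The 3 cold libraries hold between 2464 and 2828 FPKM and the 3 control libraries between 10174 and 12659 FPKM.

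All 67 members were among the 17155 genes averaging 1 FPKM or more that were compared between cold and control by limma-trend on log2(FPKM + 1). All 67 passed as lower in cold (Benjamini-Hochberg adjusted p under 0.05), against 13.4% of all tested genes. All of them passed with a fall of at least 1 on the log2 scale, against 3.05% of all tested genes meeting both conditions. The cold and control libraries did not overlap for any member, as the rule demands, against 19.7% of tested genes with every cold library below every control library. Since the rule chose the members on this same contrast, these counts say nothing further about them. Over all tested genes 2295 (13.4%) were lower and 3606 (21.0%) higher, and the split was 2922 lower and 2807 higher after median-of-ratios scaling, and 3156 lower and 2672 higher after quantile normalization. Without cold library 2 the counts were 1425 lower and 2253 higher. The median log2 change was -1.94 over the members and 0.08 over all tested genes, and after quantile normalization it was -2.03 over the members and -0.03 over all tested genes.

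The rest of the abundant warm-leaf transcripts were shifted little on balance. The 2140 genes with at least 40 FPKM in every control library that were not members had a median log2 change of -0.02, beside 0.08 over all tested genes. Of these, 583 were called lower (27.2%) and 462 higher (21.6%) in cold. The members are the far end of a range of losses, since for 805 of the 2207 abundant genes every cold library was below every control library. The highest cold library was at most 0.5 of the lowest control library for 67 of them, at most 0.25 for 18 and at most 0.1 for 3. The mirrored rule, with cold and control exchanged, was met by 142 genes.

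The 10 members with the highest control means carried 44.5% of the members' summed FPKM in cold and 44.7% of it in control. The highest, VIT_214s0066g01210, held 251, 326 and 249 FPKM in cold libraries 1, 2 and 3, against 1479, 1311 and 1386 FPKM in control libraries 1, 2 and 3. It ranked 25th of all identifiers by control mean and 216th by cold mean. This single gene accounted for 10.2% of the members' summed level in cold and 12.6% in control.

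The next by level, VIT_202s0025g02570, held 65.0, 69.9 and 120 FPKM in cold and 555, 529 and 503 FPKM in control. Its control libraries were close together, while cold library 3 stood above the other cold libraries. VIT_213s0067g03430 held 29.8, 41.8 and 42.5 FPKM in cold and 345, 363 and 360 FPKM in control. Its control libraries were the most even of the 10. Its control mean was 9.36 times its cold mean, the largest loss among the 10 apart from VIT_219s0093g00550, which is described below.

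The smallest losses of the 10 were those of VIT_203s0088g01190 and VIT_205s0020g02480. VIT_203s0088g01190 held 193, 180 and 160 FPKM in cold and 400, 386 and 424 FPKM in control. VIT_205s0020g02480 held 145, 156 and 164 FPKM in cold and 332, 368 and 359 FPKM in control. Both stayed among the 1000 most abundant genes in cold, at places 437 and 521, and both were separated from control by little more than the rule asks. VIT_211s0016g02790 held 69.1, 117 and 110 FPKM in cold and 333, 311 and 280 FPKM in control, with cold library 1 the lowest. VIT_205s0020g04110 held 158, 143 and 120 FPKM in cold and 620, 445 and 390 FPKM in control. In this gene library 1 was the highest of its group on both sides.

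The remaining 3 of the 10 were each at least 1.5 times higher in control library 1 than in both other control libraries. VIT_208s0058g01230 held 114, 147 and 113 FPKM in cold and 783, 339 and 356 FPKM in control. VIT_214s0006g02555 held 52.4, 86.2 and 96.1 FPKM in cold and 543, 251 and 258 FPKM in control. VIT_219s0093g00550 held 11.8, 22.4 and 36.0 FPKM in cold and 582, 95.1 and 87.5 FPKM in control. Control library 1 alone puts this last gene among the 10.

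The loss was moderate for most members and very deep for a few. The fold loss, the control mean divided by the cold mean, had a median of 3.99 and quartiles of 2.83 and 5.82. It was under 4 for 34 members, at least 4 for 33, at least 8 for 12 and at least 16 for 5. The 18 members with a fold loss of 2.27 to 2.98 had median group means of 40.4 FPKM in cold and 105 FPKM in control. For the 16 with 3.02 to 3.99 these medians were 27.0 FPKM in cold and 99.6 FPKM in control, and for the 21 with 4.01 to 7.98 they were 21.8 FPKM in cold and 90.8 FPKM in control. The 7 with 8.26 to 14.5 had medians of 12.1 FPKM in cold and 139 FPKM in control, and the 5 with 16.4 to 54.0 had 4.24 FPKM in cold and 122 FPKM in control. These classes are made from the ratio of the same means, so their levels are a description of it. Measured by the extremes, the highest cold library held a median of 33.9% of the lowest control library, and it held at most 20% for 12 members and at most 10% for 3. Spearman's rho of the fold loss with the control mean was 0.01 across the 67 genes, which share their libraries and one level limit. With the cold mean it was -0.64, a figure that the fold itself contains.

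**Figure D3:**
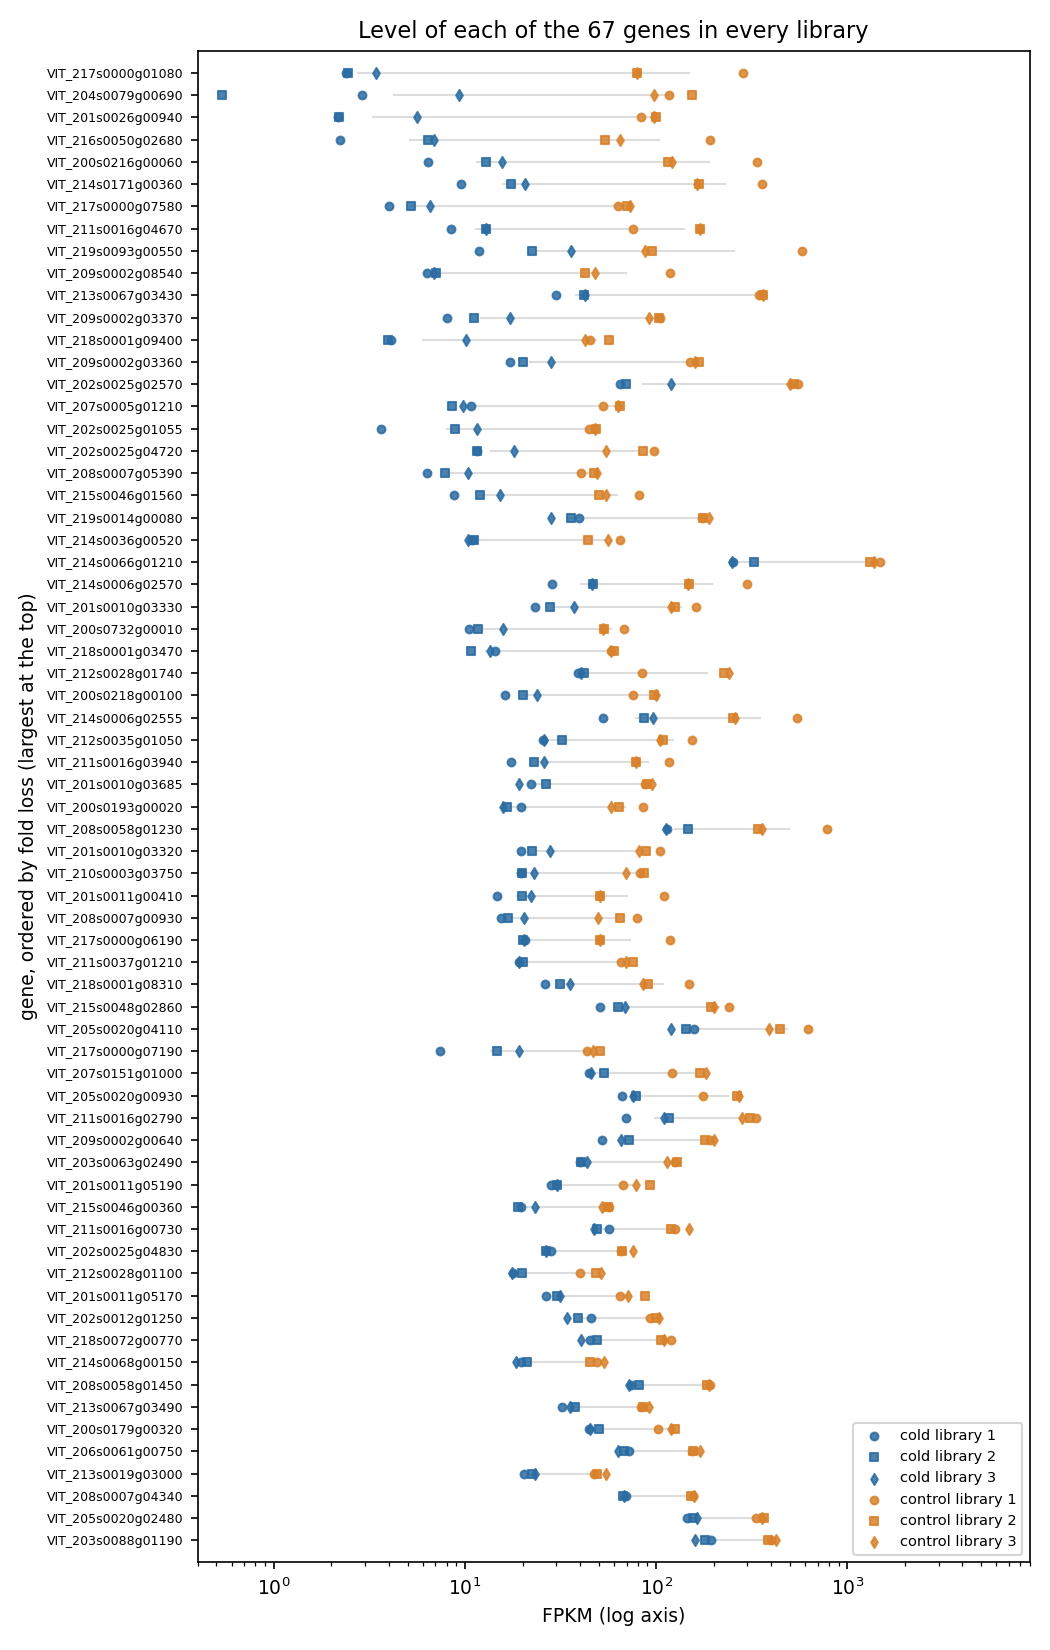
FPKM on a log axis of every member in all 6 libraries, blue for cold and orange for control, with the library number by marker and a grey line between the group means. Genes are ordered by fold loss, and VIT_217s0000g01080 at the top falls to between 2.38 and 3.41 FPKM in cold, against 79.4 to 285 FPKM in control.

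The 3 members whose every cold library was at most 10% of every control library were among the least abundant members in cold. VIT_217s0000g01080 held 2.38, 2.45 and 3.41 FPKM in cold and 285, 79.6 and 79.4 FPKM in control. VIT_204s0079g00690 held 2.89, 0.537 and 9.29 FPKM in cold and 117, 153 and 97.3 FPKM in control. VIT_201s0026g00940 held 2.16, 2.18 and 5.58 FPKM in cold and 83.6, 99.6 and 97.4 FPKM in control. The cold libraries of VIT_204s0079g00690 spread most of all members, with an SD of 1.37 on the log2(FPKM + 1) scale and 78, 15 and 283 reads recovered from the FPKM.

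The order of these losses depended on control library 1. With all libraries the fold loss was 54.0 for VIT_217s0000g01080, 28.9 for VIT_204s0079g00690 and 28.3 for VIT_201s0026g00940. Without control library 1 it was 29.0 for VIT_217s0000g01080, 29.5 for VIT_204s0079g00690 and 29.8 for VIT_201s0026g00940, so the 3 genes then lost about the same multiple. In VIT_217s0000g01080 the cold level rested on 29, 31 and 47 reads, and in VIT_201s0026g00940 on 107, 112 and 312 reads.

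Of the 7 other members among the 10 with the largest fold loss, VIT_217s0000g07580 held 3.99, 5.22 and 6.59 FPKM in cold and 63.0, 70.7 and 73.3 FPKM in control. Cold library 3 was 1.65 times cold library 1, the control libraries were closer together, and the fold loss was 13.1. VIT_211s0016g04670 held 8.40, 12.9 and 12.8 FPKM in cold and 75.8, 169 and 170 FPKM in control. Control library 1 was its lowest control library, and without it the fold loss was 14.9 in place of 12.2.

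The remaining 5 were all raised in control library 1. VIT_216s0050g02680 held 2.21, 6.40 and 6.84 FPKM in cold and 192, 53.8 and 64.9 FPKM in control. VIT_200s0216g00060 held 6.38, 12.8 and 15.6 FPKM in cold and 336, 115 and 121 FPKM in control. VIT_214s0171g00360 held 9.51, 17.4 and 20.6 FPKM in cold and 359, 167 and 163 FPKM in control. In these 3 genes library 1 was the highest control library and the lowest cold library. Without control library 1 their fold losses were 11.5, 10.2 and 10.4, in place of 20.1, 16.4 and 14.5.

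VIT_209s0002g08540 held 6.31, 7.03 and 6.86 FPKM in cold and 118, 42.2 and 48.1 FPKM in control. Its cold libraries were nearly equal, and its fold loss was 10.3, or 6.71 without control library 1. The last is VIT_219s0093g00550, whose values are given above. Its fold loss was 10.9, or 3.91 without control library 1, and its limma-trend adjusted p missed the threshold when cold library 1 (0.088) or cold library 2 (0.078) was left out. It also missed it with the replicate number as a block (limma-trend adjusted p = 0.072), within a range of 0.0088 to 0.088 over all settings. Every other member kept its call in each of these settings.

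Control library 1 thus set a class of members apart. It was at least 1.5 times both other control libraries for 13 of 67 members (19.4%), and for 121 of the 2140 abundant genes outside the rule (5.65%). It was lower than both others by the same factor for 3 members (4.48%) and for 87 of the other abundant genes (4.07%). These classes were drawn after the values were seen and were not tested. The rule uses the lowest control library, so a low control library 1 can keep a gene out while a high one cannot. The sizes of both classes therefore depend in part on the rule. The 13 genes were raised in control library 1 by a median factor of 2.25 over the mean of the other control libraries, with a range of 1.56 to 6.37. Their median fold loss was 5.18, or 3.91 without control library 1, and it stayed at 2.51 or more for each of them. Control libraries 2 and 3 differed by a median factor of 1.06 over the members, and by at most 1.57. The median was also 1.06 over the 2140 abundant genes outside the rule, where the largest factor was 2.96.

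The 3 members low in control library 1 were VIT_212s0028g01740, VIT_211s0016g04670 and VIT_205s0020g00930. VIT_212s0028g01740 held 38.8, 41.9 and 40.3 FPKM in cold and 84.4, 227 and 240 FPKM in control. Its cold libraries were almost equal, and control library 1 alone brought it close to the limit of the rule. VIT_205s0020g00930, named after its values were seen, held 66.4, 78.4 and 75.3 FPKM in cold and 175, 266 and 271 FPKM in control.

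The cold libraries also stood apart from each other. Of 67 members, 44 (65.7%) had their lowest cold value in library 1 and 34 (50.7%) their highest in library 3. Of the 2140 other abundant genes, 41.9% were lowest in library 1 and 44.6% highest in library 3. Both held for 31 members (46.3%), and for 652 of the 2140 other abundant genes (30.5%). Cold library 3 was at least 1.5 times cold library 1 for 24 members and the reverse held for 0. Among the 33 members with a cold mean between 13.3 and 45.7 FPKM, 9 (27.3%) showed that difference, against 112 of 4867 non-members of the same cold level (2.30%). The reverse held there for 0 members and 128 non-members (2.63%). The same libraries differed in depth, with 18773557 reads in cold library 1, 19468504 in cold library 2 and 21217704 in cold library 3, and the part of depth in these differences was not tested.

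**Figure D4:**
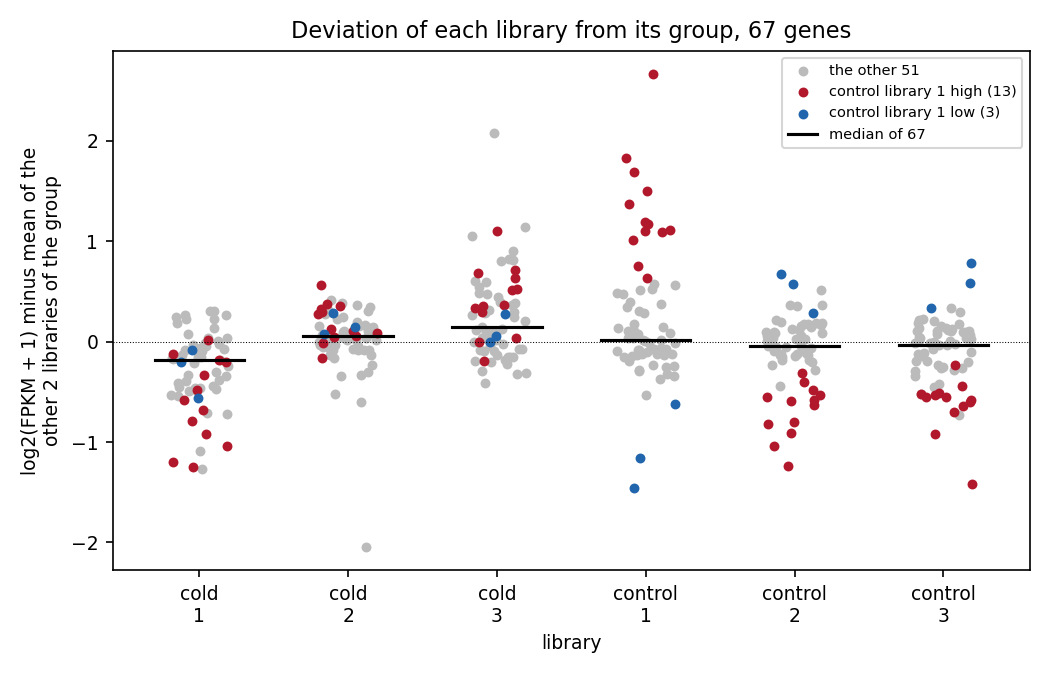
Deviation of each library from the mean of the other 2 libraries of its group, on the log2(FPKM + 1) scale, for the 67 genes, with the 13 members high in control library 1 in red and the 3 low in it in blue. Bars mark the medians, which are -0.19 in cold library 1, 0.05 in cold library 2 and 0.14 in cold library 3, and between -0.04 and 0.02 in the control libraries.

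Most genes that were high in control library 1 were lowest in cold library 1. Of the 13 such members, 11 had their lowest cold value in library 1, and 9 of these had their highest in library 3. Of the 51 members with no such departure of control library 1, 30 had their lowest cold value in library 1, and 22 of these had their highest in library 3. All 3 members low in control library 1 also had their lowest cold value in library 1, and none of these comparisons was tested. Cold library 3 was a median 1.62 times cold library 1 in the 13 genes and 1.13 times in the 51. The members spread more than the other abundant genes, with a median SD on the log2(FPKM + 1) scale of 0.21 in cold and 0.17 in control, against 0.091 in cold and 0.13 in control for the 2140. Their cold level was also lower, and these spreads were not tested. Among the 33 members of middle cold level the median SD in cold was 0.19, and it was 0.099 in non-members of that level.

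The most variable members in cold besides those above were VIT_202s0025g01055 and VIT_218s0001g09400. VIT_202s0025g01055 held 3.63, 8.85 and 11.6 FPKM in cold and 44.6, 48.2 and 47.8 FPKM in control, so it was even in control and spread over a factor of 3.19 in cold. VIT_218s0001g09400 held 4.09, 3.95 and 10.1 FPKM in cold and 45.3, 56.7 and 42.5 FPKM in control. At the steady end, VIT_208s0007g04340, chosen for naming after its values were seen, held 69.1, 66.8 and 67.9 FPKM in cold and 155, 152 and 158 FPKM in control.

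Few members had low read numbers. The whole reads behind the FPKM could be recovered, and a member held a median of 746 reads per cold library and 2610 per control library. Only 5 members had fewer than 100 reads in any cold library, the fewest being 15 in cold and 199 in control. The gene lengths implied by the FPKM had quartiles of 1068 and 2162 bases and a median of 1517 bases in the members, against 1067, 2372 and 1662 bases in the other abundant genes. This difference in length was not tested.

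The members were scattered over the genome as far as identifiers show it. All 20 chromosome fields held at least 1 member and none held more than 7. These include field 00, which may not stand for a chromosome. The counts were highest in field 01 with 7 of its 138 abundant genes, field 14 with 6 of 141, and fields 00, 02, 08 and 11 with 5 each. As a share of abundant genes, field 09 was highest with 4 of 72 (5.56%) and field 06 lowest (0.806%), beside 3.04% over all fields. Field 01 stood at 5.07% and field 08 at 3.09%, and these shares were not tested. Fields 04, 06, 10 and 16 held 1 member each. The 67 genes came from 40 scaffold fields, 26 of which held a single member and 4 of which held 4 members.

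Few members followed each other in the numbering. Among all identifiers 2 pairs were consecutive, and 1 more pair was consecutive among the tested genes alone. On scaffold field 0010 of chromosome field 01, VIT_201s0010g03320 held 19.5, 22.3 and 27.7 FPKM in cold and 105, 88.3 and 81.6 FPKM in control. Its neighbour VIT_201s0010g03330 held 23.1, 27.8 and 37.3 FPKM in cold and 161, 126 and 119 FPKM in control. The pair kept the same order of libraries in both groups, with a ratio of the second gene to the first of 1.19 to 1.35 in cold and 1.42 to 1.54 in control.

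On scaffold field 0002 of chromosome field 09, VIT_209s0002g03360 held 17.1, 20 and 28.3 FPKM in cold and 150, 168 and 159 FPKM in control. VIT_209s0002g03370 held 8.03, 11.1 and 17.2 FPKM in cold and 105, 104 and 91.4 FPKM in control. Their fold losses were 7.31 for the first and 8.26 for the second, and both genes were lowest in cold library 1 and highest in cold library 3. The third pair is VIT_214s0006g02555, given above, and VIT_214s0006g02570, with an identifier listed at 0 in all libraries between them. VIT_214s0006g02570 held 28.4, 46.5 and 46.1 FPKM in cold and 297, 149 and 146 FPKM in control, so it shared the high control library 1 and the low cold library 1 of its partner. The ratio of the second gene to the first was 0.480 to 0.543 in cold and 0.548 to 0.594 in control.

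A further 3 pairs, named after their values were seen, lay within 10 identifiers of each other without being consecutive by either count. The ratios below are those of the first gene to the second. VIT_201s0011g05190 and VIT_201s0011g05170 kept a ratio of 0.961 to 1.07 in cold and 1.04 to 1.10 in control, the most equal of the 6 pairs. The identifier between them, VIT_201s0011g05180, held 36.7, 26.3 and 71.6 FPKM in cold and 43.6, 116 and 84.1 FPKM in control, so its groups overlapped. VIT_202s0025g04830 and VIT_202s0025g04720 were at 1.47 to 2.44 in cold and 0.667 to 1.39 in control. VIT_213s0067g03490 and VIT_213s0067g03430 were at 0.831 to 1.08 in cold and 0.235 to 0.256 in control, so genes that differed in warm leaves stood near one level in cold. Genes side by side may be copies with nearly the same sequence, and the labels do not say how reads matching more than 1 gene were treated, so single values within a pair are uncertain.

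The genes numbered next to a member mostly did not share its loss. The members had 126 immediate neighbours that were not members, of which 46 averaged under 1 FPKM and 80 were tested. Of the 80, 13 were called lower (16.2%, beside 13.4% of all tested genes) and 14 higher, with a median log2 change of 0.08, the same as over all tested genes. A fall of at least 2-fold was called for 3 of them (3.75%, beside 3.05% of all tested genes). These were VIT_201s0011g05200, at 0.256 FPKM in cold and 4.29 FPKM in control, VIT_202s0012g01260, at 2.08 FPKM in cold and 5.72 FPKM in control, and VIT_209s0002g00630, at 2.74 FPKM in cold and 8.08 FPKM in control, all as group means. VIT_208s0007g00920, named after its values were seen, came close with 102, 104 and 102 FPKM in cold and 195, 204 and 213 FPKM in control. In all, 14 of the 126 neighbours had at least 40 FPKM in every control library. Of these, VIT_208s0007g00920, VIT_202s0025g04710, VIT_204s0079g00680, VIT_211s0016g04680, VIT_217s0000g07200 and VIT_219s0014g00070 were called lower, each by less than 2-fold. VIT_218s0001g03450 was called higher, and the rest were not called. Among the 2140 abundant genes outside the rule 27.2% were called lower and 21.6% higher. This comparison was made after the values were seen and was not tested.

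**Figure D5:**
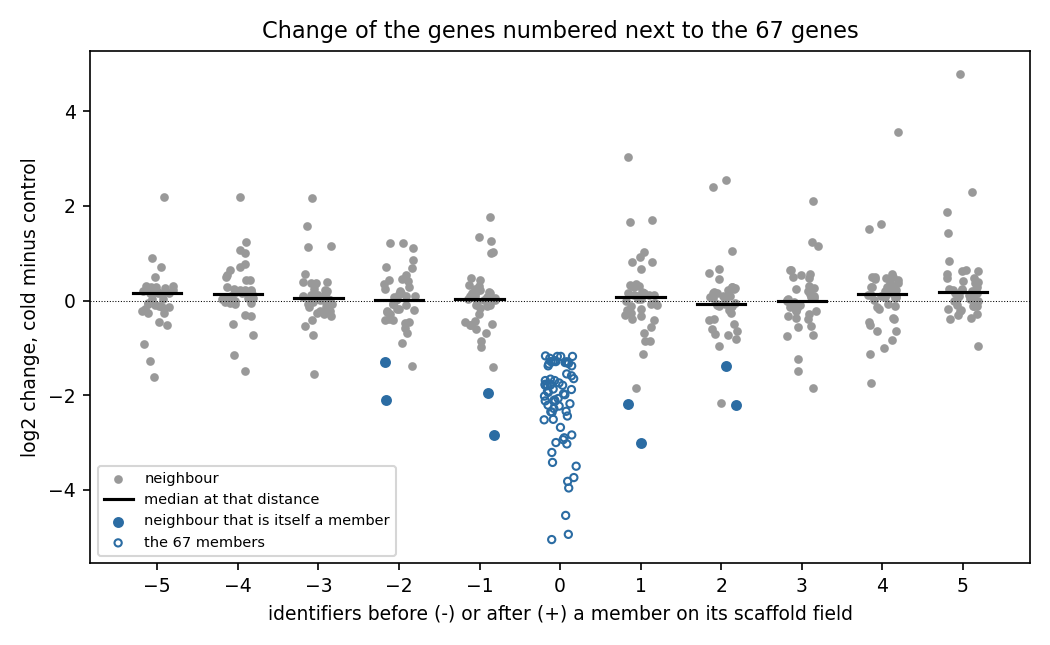
Log2 change, cold minus control, of the tested genes that lie 1 to 5 identifiers before or after a member on the same scaffold field, with the members themselves as open circles at 0 and neighbours that are members in filled blue. Black bars are medians at each distance and lie between -0.06 and 0.18, while the members lie between -5.05 and -1.17.

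The limits of the rule cut through a continuous range. Just inside the level limit were VIT_212s0028g01100, VIT_208s0007g05390 and VIT_209s0002g08540, with lowest control values of 40, 40.4 and 42.2 FPKM. Just outside were VIT_201s0026g02620, VIT_201s0011g06190 and VIT_201s0026g02100 with 39.2, 38.6 and 37.5 FPKM. VIT_201s0026g02620 held 0.346, 2.95 and 3.16 FPKM in cold and 39.2, 88.9 and 113 FPKM in control, so control library 1 alone kept it out.

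Just inside the limit on the ratio, the highest cold library was 50% of the lowest control library in VIT_203s0088g01190, 49.6% in VIT_212s0028g01740 and 49.4% in VIT_212s0028g01100. Just outside, it was 50.4% in VIT_213s0019g00780, 50.8% in VIT_208s0007g00330 and 51.1% in VIT_214s0060g00900. With group means in place of the extremes of each group the rule takes 180 genes, and without control library 1 it takes 104. Both of these sets contain all 67, as they must, since both changes only loosen the rule.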

How the data were processed

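The authors deposited 1 table of FPKM with 31845 gene identifiers and 6 libraries, 3 cold and 3 control. Columns were assigned to samples through the sample titles. FastQC, cutadapt, STAR, HTSeq and DESeq2 are named, without roles or versions, per the submitters' processing notes. Neither labels nor file name a genome build or annotation. Members and lists were chosen with earlier results of these data known. Levels are FPKM as deposited. The 17155 genes averaging 1 FPKM or more were compared by limma-trend on log2(FPKM + 1), two-sided, with Benjamini-Hochberg adjustment over all of them and a threshold of 0.05. The scale understates changes of low genes. The fit was run on simulated reads, drawn with the same spread setting for every gene and with no library that stood apart. That run therefore does not cover a library like control library 1. Because nothing ties libraries to separate plants, p-values reflect library-to-library spread, which may be technical. Whole reads were recovered from the FPKM within 0.01 reads for 25054 of 25054 genes above 0, with library totals of 16437001 to 21217704 reads, each cold library being deeper than each control library. Such reads cover counting error only. Members were named by rank: the 10 highest in control, the 10 largest fold losses, the 5 most variable in each group, consecutive members, and the 3 genes nearest each limit on either side. The function lists and cell type markers fixed for named genes had no members, as no names were available. The tools were limma 3.58.1 in R 4.3.3 and pandas 2.3.3 with numpy 2.4.6 in Python 3.11.15. Alternatives covered scaling, pseudocount, filter, replicate block, left-out libraries and the limits of the rule.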

Additional observations from a re-analysis of the deposited data

How the results depend on the processing

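The rule took 115 genes with the level limit at 20 FPKM, 37 at 80 FPKM, 18 with the ratio limit at 0.25, 180 with group means, 84 after median-of-ratios scaling and 78 after quantile normalization. Without any 1 library, so that in each case fewer libraries had to meet the rule, it took 71 to 104 genes. The most were taken without control library 1. All 67 members were in each of these sets except the stricter ones at 80 FPKM and at 0.25. For the level limit at 20 FPKM, the group means and the left-out libraries this was fixed in advance, since these changes only loosen the rule. Median-of-ratios scaling divided the cold libraries by factors of 1.02 to 1.08 and the control libraries by 0.963 to 0.994. It thus lowered every cold value and raised every control value, so it could not lose a member either. Of the sets that kept all 67, only the set after quantile normalization could have lost a member. With 1 library left out, genes called lower numbered 1425 without cold library 2 to 2746 without control library 1. They numbered 2922 after median-of-ratios scaling and 3156 after quantile normalization, and the cause of these differences was not tested. Members called lower numbered 67 or 66 in every setting of the fit. The median log2 change of the members lay between -2.03 and -1.84. For 29 named members, 374 of 377 values under alternatives kept their direction and call, and 3 kept their direction without the call, all of VIT_219s0093g00550. The rule chose the members on this same contrast, so these counts of members are a description and say nothing further about them. Their direction was fixed in advance wherever only a library, the filter, the pseudocount or the replicate block changed. With the factors given above it was also fixed under median-of-ratios scaling. Under the replicate block, 1627 genes and 66 members were lower, and VIT_219s0093g00550 had an adjusted p of 0.072 (limma-trend, 0.0088 to 0.088 over all settings). Cold and control libraries of one number did not move together from their group means (correlations -0.26, -0.13 and -0.28), and 0 of 3 cold libraries correlated best with the control library of their number. The planned count model was not run. limma-voom on recovered reads, chosen after seeing the data to stand in its place, called 2309 genes lower and all 67 members. Where members hold few reads in cold, down to 15, the depth of the loss is uncertain.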
